A study of Mus musculus with 12 samples.

Results

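The genes described here are 10 members of the Bcl2 family of apoptosis regulators, chosen by name: Mcl1, Bcl2, Bcl2l1, Bcl2l2, Bcl2l11, Bbc3, Pmaip1, Bad, Bax and Bak1. All 10 were found among the 41091 gene IDs of each count table and all 10 passed the filter on low counts. They were followed in 12 RNA-seq libraries of acute hippocampal slices from wild type C57BL/6 mice aged 2 to 3 months, whose dentate gyrus had been trimmed away. Slices of an animal were divided between chemical long-term potentiation (LTP) and control. Induction began with 5 min of 50 uM forskolin, which activates adenylyl cyclase and raises cAMP, and went on for another 5 min with 30 mM KCl and 10 mM Ca added. Control slices received 0.2% DMSO, the vehicle, for 10 min. Collection followed 1 hr or 3 hr after treatment. This gives a control group and an LTP group at each time, with 3 libraries in each of the 4 groups. The forskolin and potassium act on every cell of a slice, so neurons and glia were both exposed.

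Bcl2 proteins decide whether the outer mitochondrial membrane stays closed. The guardians (Mcl1, Bcl2, Bcl2l1, which encodes Bcl-xL, and Bcl2l2, which encodes Bcl-w) bind and restrain the effectors Bax and Bak1, which otherwise form pores that release cytochrome c and start the caspase cascade. BH3-only proteins (Bim from Bcl2l11, Puma from Bbc3, Noxa from Pmaip1, and Bad) occupy the guardians or activate the effectors, and they are largely controlled by transcription or phosphorylation. In the adult brain these proteins are also known for non-lethal work at mitochondria and synapses.

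Library totals ran from 37118382 to 50815001 counts, so that 3 counts, the floor used here, equalled 0.0584 to 0.0791 CPM (counts per 1000000 counts, scaled by TMM). The lowest count of any of the 10 genes in any library was 72, for Bbc3. This floor covers counting error only, while the 95% intervals given below come from edgeR and include the spread between libraries. 1 hr control replicate 2 was set aside by the study as a clustering outlier and was left out of the fits, so the 1 hr comparison rests on 3 LTP and 2 control libraries. In that library 7 of the 10 genes lay above and 2 below both other 1 hr controls, and 8 lay between the means of the 1 hr and 3 hr controls. Markers of hippocampal neurons were abundant in every library (at least 60261 counts of Camk2a), and the dentate granule markers Prox1, C1ql2, Dsp and Tdo2 were present in all 12 libraries (at least 207 counts) although the labels describe a trimmed dentate gyrus. The neutrophil gene S100a8 had 0 to 3 counts. The immediate early genes Arc, Fos, Npas4, Egr2 and Nr4a1 were all called higher in LTP slices at both times, with log2 fold changes from 1.70 to 2.60 at 1 hr and from 1.09 to 1.48 at 3 hr. Arc is not an independent check, since the study measured it by PCR when choosing slices. In whole slices fewer cells of a type and less RNA per cell cannot be told apart.

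A gene was called at an adjusted p under 0.1 (edgeR quasi-likelihood test, Benjamini-Hochberg over all genes tested) with a fold change over 1.2. At 1 hr, 0.778% of 17736 genes were called higher and 0.0113% lower, and LTP and control values were fully apart in 22.6% of genes. At 3 hr, 5.07% of 17508 genes were called higher and 1.53% lower, and values were fully apart in 27.0%. Of the 10 Bcl2 genes, 1 was called at 1 hr, Mcl1, which was higher. At 3 hr 3 were called, with Mcl1 higher and Bbc3 and Bax lower. Values were fully apart for 3 of the 10 at 1 hr and for 6 of the 10 at 3 hr. The 10 genes had a median log2 fold change of -0.03 at 1 hr and -0.13 at 3 hr, beside medians near -0.001 and -0.002 over all genes tested.

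The stretches just upstream of RefSeq starts of the 3 called genes are shown because induction here included forskolin, which raises cAMP, beside KCl and Ca. The parts of these in the changes were not tested. The best known DNA element of cAMP signaling is the CRE (TGACGTCA), whose 5′ part TGACG is its core. For Bbc3 a start was kept for display only if its window holds a core. RefSeq promoters (GRCm38.p6, 250 bases before to 50 after a start) were matched for 9 of the 10 genes, with 15 starts. The 250 bases before the start follow, 5′ to 3′ on the gene's strand, with a CRE core in capitals on either strand.
Mcl1, chr3:95658471-95658720, plus strand: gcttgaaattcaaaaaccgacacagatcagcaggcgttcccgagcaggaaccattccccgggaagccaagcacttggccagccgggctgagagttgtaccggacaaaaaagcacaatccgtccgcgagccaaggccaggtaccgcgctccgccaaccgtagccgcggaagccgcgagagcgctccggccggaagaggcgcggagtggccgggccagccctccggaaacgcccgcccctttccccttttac
Bbc3, chr7:16309333-16309582, plus strand: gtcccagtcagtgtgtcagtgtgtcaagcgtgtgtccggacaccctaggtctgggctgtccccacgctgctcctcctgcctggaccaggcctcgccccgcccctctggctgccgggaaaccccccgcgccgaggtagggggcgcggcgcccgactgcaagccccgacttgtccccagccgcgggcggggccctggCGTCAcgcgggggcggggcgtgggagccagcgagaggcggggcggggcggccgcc
Bax, chr7:45466899-45467148, minus strand: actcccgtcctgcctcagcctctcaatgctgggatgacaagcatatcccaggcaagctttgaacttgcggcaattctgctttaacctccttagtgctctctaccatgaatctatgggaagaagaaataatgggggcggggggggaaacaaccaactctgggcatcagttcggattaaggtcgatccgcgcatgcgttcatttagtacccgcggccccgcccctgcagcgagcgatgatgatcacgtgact
The Bbc3 start used by RefSeq lies inside the gene as GENCODE places it, so that stretch is upstream of an internal start. The Mcl1 window ends at chr3:95658770, upstream of the gene start that GENCODE gives, 95658788. Relative to the RefSeq starts, the Mcl1 core lies downstream, first base at +17, and the Bcl2 core upstream at -107. Both are shown in 25 bases, since they and Bbc3 were the only members with a match.
Mcl1, chr3:95658727-95658751, plus strand: tcctcgcctgCGTCAgcacggccct
Bcl2, chr1:106714383-106714407, minus strand: gaatgaacggTGACGtacgtacagg

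A CRE core, searched as TGACG on both strands, was found in 3 of the 15 member promoters, and 20.8% of all 32851 promoters hold one. It stands reversed (CGTCA) in Mcl1 and in Bbc3, where its first base is at -55, and forward in Bcl2. The full CRE, which contains the core and is held by 1.79% of promoters, was in 0 of the 15. The AP-1 element TGACTCA, searched on both strands and held by 5.20%, and the CArG box, held by 1.63%, were also in 0 of the 15. C and G made up 64.4% of the Mcl1 stretch, 76.4% of the Bbc3 stretch and 54% of the Bax stretch, beside a median of 52.4% over all promoters. A match describes letters in a window and is not a site in use.

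The plot of every library's level shows the 10 genes side by side.

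**Figure D1:**
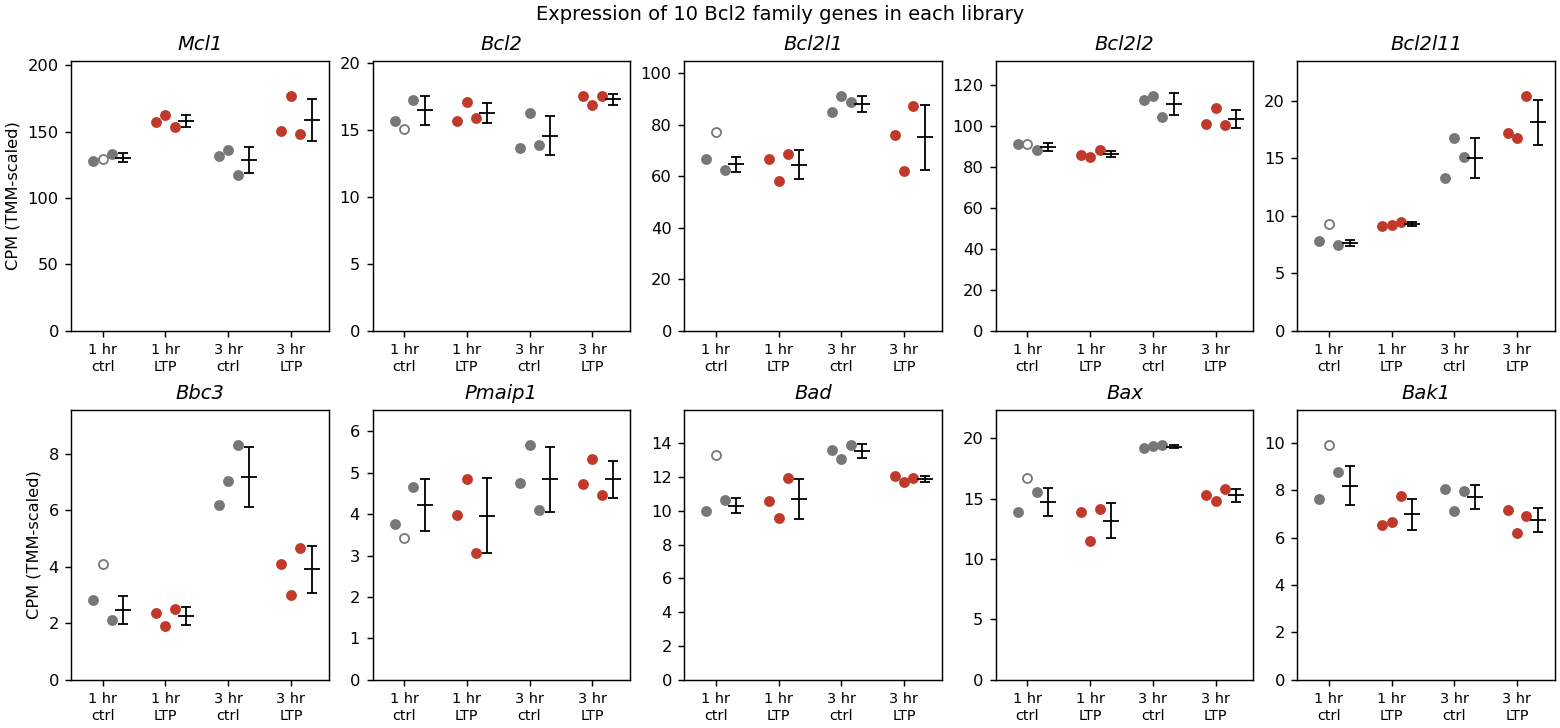
TMM-scaled CPM of the 10 genes (vertical axes, each from 0) in the 12 libraries, grouped by time and treatment. Points are libraries, open points are 1 hr control replicate 2, which was left out of the fits, and bars are the mean ± SD of the fitted libraries. Mcl1 is higher in every LTP library than in any control of its time, and Bbc3 and Bax are lower in the 3 hr LTP libraries than in the 3 hr controls.

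Per kilobase of exon the order of the levels was steady at the top and mixed at the bottom. The length is that of all exons, untranslated parts included. The paper states that its expression analysis kept reads of coding regions only. Whether the deposited counts cover all exons or coding sequence alone was not settled, and the ranks and shares given per length depend on it. Mcl1 averaged 42.1 CPM per kb over the 12 libraries, followed by Bcl2l2 at 21.9, Bcl2l1 at 16.2, Bax at 10.0 and Bad at 4.64 CPM per kb. These 5 genes kept ranks 1 to 5 in all 12 libraries. Bak1, the other effector, averaged 3.14 CPM per kb and ranked 6 or 7. Bbc3 at 1.92, Bcl2 at 1.75, Pmaip1 at 1.61 and Bcl2l11 at 1.57 CPM per kb had overlapping ranges, and the order of these neighbours changed between libraries. Bbc3 moved most, from rank 10 to rank 6. In the fitted 1 hr controls the guardians together held 77.7% to 79.1% of the summed per-length level, beside 80.0% to 82.1% after LTP. At 3 hr they held 73.5% to 75.8% in controls and 78.4% to 80.6% after LTP. This higher share does not describe each guardian. At 3 hr the mean of Mcl1 was 37.6 CPM per kb in controls and 46.4 after LTP, and that of Bcl2 1.59 and 1.89. The 3 hr means of Bcl2l2 (24.8 and 23.2) and Bcl2l1 (19.2 and 16.4) were lower after LTP. At 1 hr the means were 38.2 and 46.2 for Mcl1, 20.1 and 19.4 for Bcl2l2, 14.1 and 14.0 for Bcl2l1, and 1.80 and 1.77 for Bcl2.

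**Figure D2:**
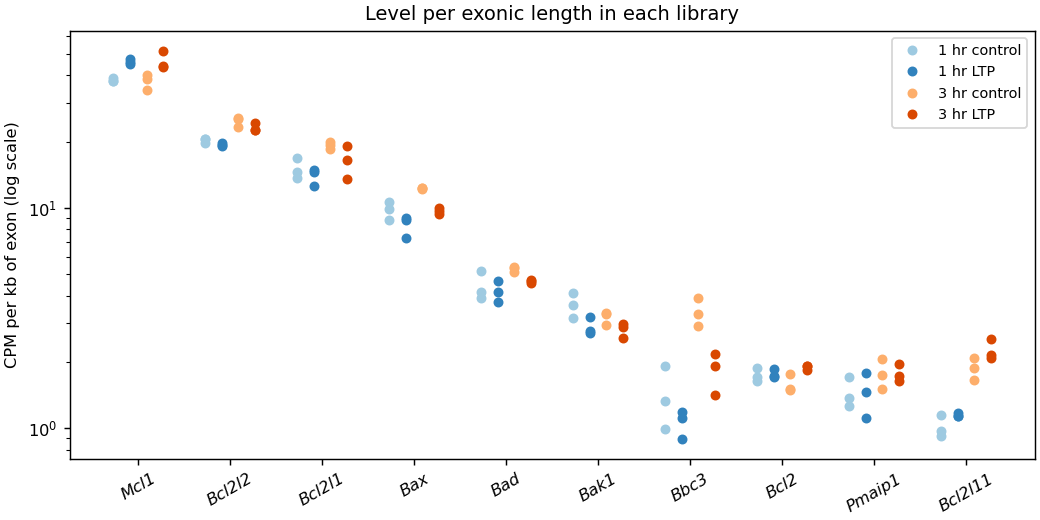
CPM per kb of exon (vertical log axis) of the 10 genes in all 12 libraries, ordered by their mean, with colours for the 4 groups. Each point is a library. Mcl1 is the highest in every library, and the 4 genes at the right overlap in range.

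Mcl1, a guardian whose protein is short-lived, lies at chr3:95658788-95663176 (mm10, plus strand) and shares none of its exonic length with another gene. Its level was 128 and 133 CPM in 1 hr control replicates 1 and 3 and 158, 162 and 154 CPM in the 1 hr LTP libraries. At 3 hr it was 132, 137 and 118 CPM in controls and 150, 177 and 149 CPM after LTP. At both times every LTP library stood above every control, so LTP also exceeded control within each of the 3 animals. The log2 ratios were 0.21 to 0.33 at 1 hr (the set-aside control included) and 0.19 to 0.37 at 3 hr. The log2 fold change was 0.29 ± 0.07 (SE) at 1 hr, 1.22-fold, and the edgeR adjusted p was 0.0948. At 3 hr it was 0.32 ± 0.08 (SE), 1.24-fold, with an edgeR adjusted p of 0.0808. Both calls lie close to the threshold. With animal as a block, the 1 hr value was 0.26 with an adjusted p of 0.0296 in edgeR, which leaves the fold just under 1.2 and ends the call, while the call at 3 hr held at an adjusted p of 0.0201. The 1 hr call was lost without control replicate 1 (0.26, adjusted p 0.763 in edgeR), control replicate 3 (0.31, 0.498), LTP replicate 1 (0.29, 0.405) or LTP replicate 2 (0.26, 0.121). The 3 hr call held without LTP replicate 3 and was lost without any other library, at edgeR adjusted p-values from 0.175 to 0.214 for the 3 controls and LTP replicate 1 and with a fold under 1.2 (0.24 on the log2 scale, 0.0617) for LTP replicate 2. The direction of the change was the same in all 12 alternative fits and all leave-one-out fits at both times, but the call was lost in 6 of the 12 alternative fits at 1 hr and in 1 of the 12 at 3 hr.

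Bcl2, the founding guardian, did not pass the test at either time. Its level was 15.7 and 17.2 CPM in the fitted 1 hr controls and 15.7, 17.1 and 15.9 CPM in 1 hr LTP, which overlap (log2 fold change -0.01, 95% interval -0.22 to 0.20). At 3 hr it was 13.6, 16.2 and 13.9 CPM in controls and 17.5, 16.8 and 17.5 CPM after LTP. These 3 hr groups did not overlap, and the log2 fold change was 0.26 ± 0.09 (SE) with an edgeR adjusted p of 0.139. Without LTP replicate 2 it was 0.28 and called (edgeR adjusted p 0.0923). About 6.09% of its exonic length is shared with a gene on the opposite strand, D630008O14Rik.

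Bcl2l1 and Bcl2l2, the more abundant guardians beside Mcl1, were not called at either time. Bcl2l1 was 66.7 and 62.6 CPM in the fitted 1 hr controls against 66.8, 57.9 and 68.5 CPM after LTP. At 3 hr it was 84.9, 91.1 and 88.7 CPM in controls against 76.1, 62.1 and 87.3 CPM after LTP, a log2 fold change of -0.22 with a 95% interval of -0.47 to 0.03. LTP replicate 2 was the low library, and LTP replicate 3 overlapped the controls. Without LTP replicate 2 the value was -0.09, and without LTP replicate 3 it was -0.35 and called (edgeR adjusted p 0.0599). Bcl2l2 was 91.2 and 88.2 CPM in 1 hr controls against 86.0, 84.8 and 88.1 CPM, groups that stayed apart by very little (log2 fold change -0.05, 95% interval -0.19 to 0.10). At 3 hr Bcl2l2 was 113, 115 and 104 CPM in controls and 101, 109 and 101 CPM after LTP, which overlap (-0.08, 95% interval -0.22 to 0.06). Within animals Bcl2l2 was below control in all 6 pairs (the set-aside control included), by log2 ratios from -0.002 to -0.16. Bcl2l1 was below control in all 3 pairs at 3 hr, from -0.02 to -0.55. Bcl2l2 shares 13.3% of its exonic length with the readthrough gene Gm20521 on the same strand, so its counts depend on how shared reads were assigned.

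Bbc3, which encodes Puma, a BH3-only protein known as a target of p53, showed the largest change of the 10 genes. It lies at chr7:16308393-16318205 (mm10, plus strand) and shares no exon with another gene. In the fitted 1 hr controls its level was 2.81 and 2.11 CPM, against 2.36, 1.90 and 2.52 CPM after LTP, and these overlap (log2 fold change -0.11, 95% interval -0.58 to 0.36). The 1 hr value ranged from -0.41 to 0.0037 over the 12 alternative fits, none of them called. At 3 hr the controls were at 6.19, 7.03 and 8.29 CPM and the LTP libraries at 4.09, 3.01 and 4.64 CPM. Every 3 hr LTP library was below every 3 hr control, so all 3 animals also had this direction. Their log2 ratios were -0.59, -1.20 and -0.82. The log2 fold change was -0.87 ± 0.17 (SE), 1.82-fold lower, with an edgeR adjusted p of 0.0322. The call held in all 12 alternative fits, with values between -0.89 and -0.73. Leaving out a library, it was lost without control replicate 2 (-0.88, edgeR adjusted p 0.127), control replicate 3 (-0.74, 0.123) or LTP replicate 1 (-0.91, 0.121).

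Bcl2l11, which encodes Bim, moved the other way from Bbc3 without passing the test. It was 7.77 and 7.44 CPM in the fitted 1 hr controls and 9.13, 9.17 and 9.45 CPM in 1 hr LTP, while 1 hr control replicate 2, set aside, was at 9.25 CPM. The fitted groups did not overlap (log2 fold change 0.29 ± 0.12 SE), and the edgeR adjusted p was 0.655. At 3 hr it was 13.3, 16.7 and 15.1 CPM in controls and 17.2, 16.7 and 20.4 CPM after LTP. LTP replicate 2 and control replicate 2 were nearly level (log2 ratio 0.002), and the fold change of 0.28 ± 0.11 (SE, log2) had an edgeR adjusted p of 0.199. Without LTP replicate 2 it was 0.34 and called (edgeR adjusted p 0.091). Over the 6 fits with a library left out, the value ranged from 0.18 to 0.36, and 1 was called.

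Pmaip1, which encodes Noxa, a BH3-only partner of Mcl1, was close to 0 at both times, with log2 fold changes of -0.08 (95% interval -0.51 to 0.34) and 0.02 (-0.30 to 0.33). Its levels ran from 3.06 to 4.85 CPM in 1 hr LTP and from 4.46 to 5.34 CPM in 3 hr LTP, and both ranges overlap the controls. Bad, whose protein is held inactive by phosphorylation, was 9.99 and 10.6 CPM in the fitted 1 hr controls and 10.6, 9.60 and 11.9 CPM after LTP. At 3 hr Bad was 13.6, 13.1 and 13.9 CPM in controls and 12.04, 11.71 and 11.95 CPM after LTP. These 3 hr groups did not overlap, but the log2 fold change of -0.17 ± 0.07 (SE) had an edgeR adjusted p of 0.226. Bad shares 20.5% of its exonic length with Gpr137 on the opposite strand, and whether counting used strand is not given in the sources used here.

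Bax, the effector on which neuronal apoptosis is known to depend most, was called lower at 3 hr. It lies at chr7:45461697-45466898 (mm10, minus strand) and shares 12.2% of its exonic length with Gm45808 on the same strand. At 1 hr it was 13.9 and 15.6 CPM in the fitted controls and 13.9, 11.5 and 14.1 CPM after LTP, which overlap (log2 fold change -0.15, 95% interval -0.40 to 0.09). At 3 hr the controls were at 19.2, 19.4 and 19.4 CPM and the LTP libraries at 15.3, 14.8 and 15.8 CPM. Both groups were tight and apart, with log2 ratios of -0.33, -0.39 and -0.29 in the 3 animals. The log2 fold change was -0.32 ± 0.07 (SE), 1.25-fold lower, with an edgeR adjusted p of 0.0408. With offsets for GC content and length it was -0.23 with an edgeR adjusted p of 0.101. The call was also lost without any of the 3 hr control replicates or LTP replicate 1, with edgeR adjusted p-values from 0.130 to 0.202 and values between -0.33 and -0.31. With animal as a block in 1 model of all 12 libraries, the edgeR adjusted p was 0.103.

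Bak1, the other effector, was lower after LTP in each animal at both times (the set-aside control included at 1 hr) but did not pass the test. At 1 hr it was 7.62 and 8.76 CPM in the fitted controls and 6.53, 6.64 and 7.73 CPM after LTP (log2 fold change -0.22, 95% interval -0.51 to 0.07). At 3 hr it was 8.07, 7.12 and 7.96 CPM in controls and 7.16, 6.17 and 6.91 CPM after LTP (-0.18, 95% interval -0.41 to 0.05). The groups overlapped at both times. With a library left out the Bak1 value ranged from -0.32 to -0.12 at 1 hr and from -0.24 to -0.11 at 3 hr. Bak1 shares 25.5% of its exonic length with Ggnbp1 on the opposite strand.

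**Figure D3:**
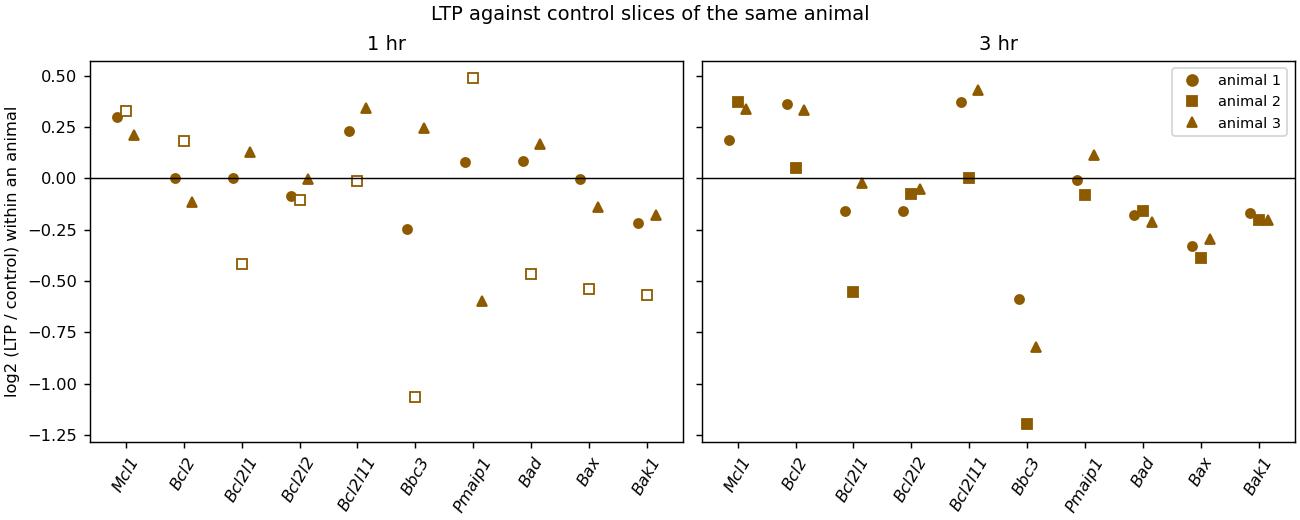
Log2 ratio of LTP to control CPM (vertical axis) within each animal for the 10 genes at 1 hr (left) and 3 hr (right), with a shape per animal. Open squares use 1 hr control replicate 2, which was left out of the fits. Mcl1 is above 0 in all 6 pairs, and Bcl2l1, Bcl2l2, Bbc3, Bad, Bax and Bak1 are below 0 in all 3 pairs at 3 hr.

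Ratios between members give the same values relative to each other. The per-length ratio of Mcl1 to Bax was 3.94 and 4.25 in the fitted 1 hr controls and 5.02 to 6.52 after LTP, and 2.79 to 3.25 in 3 hr controls and 4.33 to 5.52 after LTP. Mcl1 to Bbc3 was 28.3 and 39.2 in 1 hr controls and 38.0 to 53.2 after LTP, ranges that overlap. At 3 hr the ratio of Mcl1 to Bbc3 was 8.81 to 13.3 in controls and 19.9 to 36.5 after LTP. Mcl1 alone held 32.1% to 34.8% of the summed per-length level in 3 hr controls and 39.2% to 45.6% in 3 hr LTP. These genes were combined because they were called, so the ratios are a description and carry no test.

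Whether the LTP effect differed between 1 hr and 3 hr was tested as an interaction in 1 model of 11 libraries, where 0.0592% of 18584 genes were called at an adjusted p under 0.1. None of the 10 genes was called by edgeR (0, with 2 at an unadjusted p under 0.05), and DESeq2 also gave 0. The largest difference was that of Bbc3, -0.75 (95% interval -1.35 to -0.15) with an edgeR adjusted p of 0.637, and that of Bcl2 was 0.28 (0.002 to 0.55) with an adjusted p of 0.755. The differences of Mcl1 (0.04, -0.20 to 0.27) and Bax (-0.17, -0.45 to 0.12) had intervals that include 0. So the calls of Bbc3 and Bax at 3 hr are not shown to be particular to that time.

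The control groups of the 2 times were compared to show what differed without LTP induction, in the model of 11 libraries. Here 16.1% of 18584 genes were called higher at 3 hr and 16.8% lower, and values were fully apart in 60.7%. Of the 10 genes 6 were called higher and 0 lower (edgeR), with a median log2 difference of 0.32 beside -0.02 over all genes. Bbc3 rose most, from 2.81 and 2.11 CPM to between 6.19 and 8.29 CPM, a log2 difference of 1.52 ± 0.21 (SE) with an edgeR adjusted p of 0.00024. Bcl2l11 followed, from 7.77 and 7.44 CPM to between 13.3 and 16.7 CPM (0.95 ± 0.12 SE, edgeR adjusted p 0.000134). The others called were Bcl2l1 (0.42), Bad (0.36), Bax (0.36) and Bcl2l2 (0.27). Mcl1 (-0.05, 95% interval -0.23 to 0.13), Pmaip1 (0.17, -0.24 to 0.57), Bak1 (-0.12, -0.37 to 0.14) and Bcl2 (-0.21, edgeR adjusted p 0.119) were not. The called genes include guardians, BH3-only genes and an effector.

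The 3 hr LTP libraries share the 3 hr controls with this comparison, so their values are set side by side only. Bbc3 was at 3.01 to 4.64 CPM in 3 hr LTP, between the fitted 1 hr controls and the 3 hr controls, with the set-aside 1 hr control at 4.08 CPM inside that range. Bax at 14.8 to 15.8 CPM in 3 hr LTP overlapped the fitted 1 hr controls. Bcl2l11 stood at 16.7 to 20.4 CPM in 3 hr LTP, at or above the 3 hr controls.

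Base composition moved with the control comparison. Across 18414 genes the median log2 difference rose from -0.22 in the fifth of genes with the least GC to 0.28 in the fifth with the most, with a Spearman coefficient of 0.425 across genes, which are not independent replicates. For LTP against control the same medians ran only from 0.02 to -0.03 at 3 hr. The fifth with the most GC starts at 55.3% and holds 5 of the 10 members: Bbc3 (65.2% GC), Bax (63.5%), Bad (57.1%), Bak1 (57.1%), which was not called, and Bcl2l1 (55.9%). With offsets for GC content and length the count of called members fell from 6 to 3, namely Bcl2l11 (0.99) and Bbc3 (0.90) higher and Bak1 (-0.34) lower. Bax then turned to -0.11, while Bcl2l1 was 0.20, Bcl2l2 0.16 and Bad 0.13, all no longer called. With 1 hr control replicate 2 included, Bad lost its call (0.26, below the fold threshold), and without 3 hr control replicate 2 Bcl2 was called lower (-0.27, edgeR adjusted p 0.068).

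Cell type markers also moved between the control groups. Of the microglia markers 4 of 5 were called lower at 3 hr, with a summed level of 191 and 197 CPM in the fitted 1 hr controls and 125 to 142 CPM in the 3 hr controls. Endothelial markers were lower for 3 of 4 genes (85.4 and 92.3 CPM against 72.3 to 74.8 CPM), and oligodendrocyte markers higher for 3 of 5 (4496 and 5468 CPM against 6207 to 7622 CPM). Of 7 neuron markers, a list of pyramidal and general neuronal genes, 3 were called lower, namely Neurod6 (-1.10), Snap25 (-0.51) and Syt1 (-0.30). Snap25 and Syt1 are not particular to pyramidal neurons. The summed level of the 7 was 7140 and 7424 CPM against 6244 to 6316 CPM, but 4 of the 7 were above 0 and their median was 0.07. Of the 3 inhibitory neuron markers Slc32a1 was higher (0.55) and Gad2 lower (-0.41). The astrocyte markers had 1 of 5 called lower, Slc1a3 (-0.29), and the dentate granule markers 1 of 4, Tdo2 (-0.58). The part of these shifts, and of GC content, in the members' differences was not tested. The time after treatment and any other difference between the sets of libraries collected at 1 hr and 3 hr cannot be told apart. In the LTP comparisons 0 of the marker genes were called by edgeR at either time, although at 1 hr 3 of 5 oligodendrocyte, 3 of 4 endothelial, 2 of 3 inhibitory neuron and 1 of 3 tested blood cell markers reached an unadjusted p under 0.05. At 3 hr 1 inhibitory neuron, 1 astrocyte and 1 endothelial marker did. The summed level of the endothelial markers at 1 hr was 85.4 and 92.3 CPM in the fitted controls and 72.0 to 76.0 CPM after LTP, and that of the inhibitory neuron markers at 3 hr was 360 to 394 CPM in controls and 398 to 424 CPM after LTP. Neither pair of ranges overlaps. The part of these markers in the members' LTP values was not tested.

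**Figure D4:**
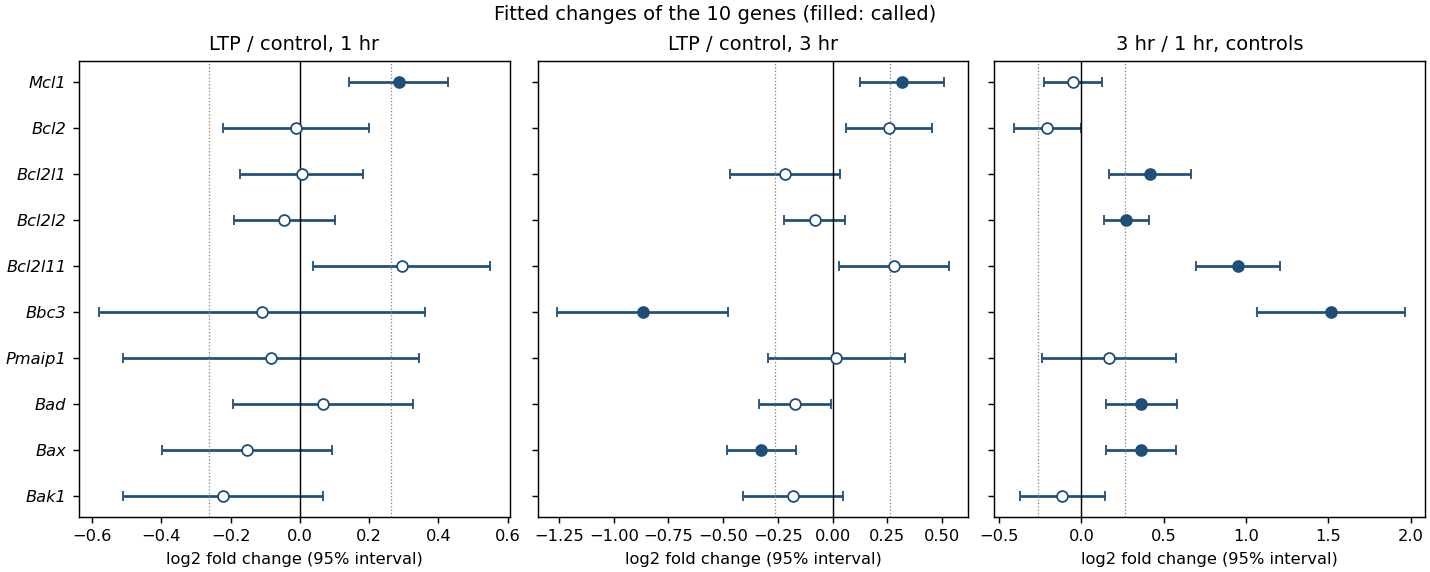
Log2 fold changes (horizontal axes, which differ in scale) of the 10 genes for LTP against control at 1 hr and 3 hr and for 3 hr against 1 hr controls, with 95% intervals from edgeR. Filled points are called, and dotted lines mark a fold change of 1.2. Mcl1 is filled at both times after LTP, Bbc3 and Bax are filled on the left at 3 hr, and 6 genes are filled on the right in the control comparison.

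The plot of other settings shows how firmly these calls stand.

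**Figure D5:**
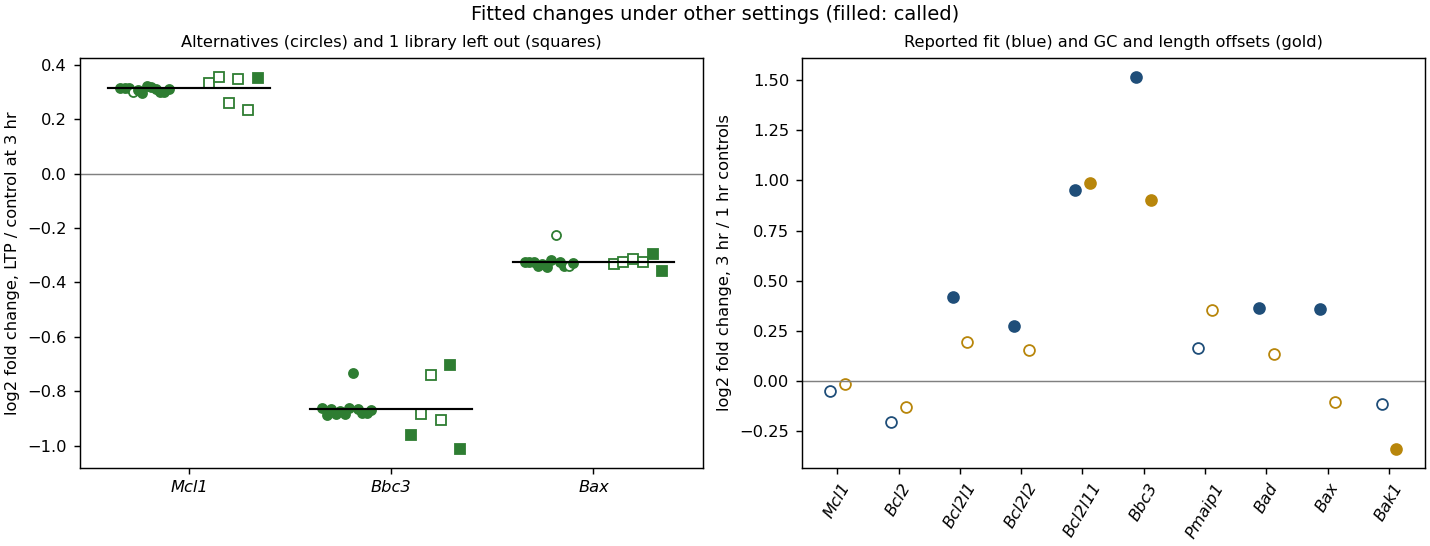
Left, log2 fold change of Mcl1, Bbc3 and Bax at 3 hr (vertical axis) in each alternative fit (circles) and with 1 library left out (squares), with the reported value as a line. Right, log2 difference of the 3 hr from the 1 hr controls for the 10 genes as reported (blue) and with GC and length offsets (gold). Filled points are called. Bbc3 is filled in all 12 circles, and Bax changes sign on the right.

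Genes around the family were taken from lists. Among 16 other genes listed with the Bcl2 family, 13 were tested and 0 were called at 1 hr or 3 hr by edgeR (1 and 3 at an unadjusted p under 0.05). Their median log2 fold changes were -0.01 and -0.10. In the control comparison 5 of them were higher and 3 lower. The 3 Bcl2a1 copies were among the higher (0.76 for Bcl2a1a, 1.06 for Bcl2a1b and 1.23 for Bcl2a1d), but these guardians are near-identical and share reads. The effector-like Bok (0.74) and the BH3-only Bmf (0.67) also rose, while Bnip3 (-0.41), a mitophagy receptor, and Bcl2l15 (-0.94) fell. Bclaf1 (-0.44), which encodes a Bcl2-associated factor and is not itself a family member, fell too.

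Downstream of the mitochondrion, none of 15 apoptosome, caspase and released factor genes was called after LTP by edgeR (0 at both times, with 0 and 5 at an unadjusted p under 0.05, and medians of -0.05 and -0.14). Between the controls 5 of the 15 were higher, among them Casp9 (0.53), the initiator caspase of the apoptosome, and 2 were lower, Cycs (-0.67), which encodes cytochrome c, and Vdac2 (-0.36). Of 9 inhibitor of apoptosis genes 0 were called at 1 hr (edgeR, 1 at an unadjusted p under 0.05) and 1 at 3 hr, Birc2, which encodes cIAP1 and was higher by 0.49 ± 0.10 (SE, log2; edgeR adjusted p 0.0391). Between the controls Birc3 (0.91) rose and Naip2 (-0.55) and Naip5 (-1.19), members of a family of near copies, fell.

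Among 10 transcription factors known to act on BH3-only genes, Atf3 (0.87 ± 0.12 SE, edgeR adjusted p 0.00137) and Jun (0.61 ± 0.10 SE, 0.00544) were higher at 1 hr. At 3 hr 1 of the 10 was called, Atf3 (0.73 ± 0.11 SE, edgeR adjusted p 0.0114). Between the controls 5 of the 10 rose, namely Cebpb (1.09), E2f1 (0.56), Trp53 (0.47), which encodes p53, Jun (0.41) and Ddit3 (0.32). The median of the 10 was 0.37.

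Proteins that control members after translation were measured at the RNA level only. Of 5 genes for turnover of the Mcl1 protein, 0 were called at 1 hr (edgeR, 0 at an unadjusted p under 0.05) and Huwe1, a ubiquitin ligase for Mcl1, was higher at 3 hr (0.34 ± 0.08 SE, edgeR adjusted p 0.0478). Of 14 genes for phosphorylation and docking of Bad, the kinases Pim1 (0.52 ± 0.10 SE, edgeR adjusted p 0.0208) and Pim3 (0.48 ± 0.09 SE, 0.0195) were higher at 1 hr. At 3 hr Pim1 was higher again (0.65 ± 0.08 SE, edgeR adjusted p 0.00551) and Pim3 lower (-0.28 ± 0.07 SE, 0.0554). Pim3 was called in the interaction (-0.75 ± 0.11 SE, edgeR adjusted p 0.031), and it was also 1.48 higher (log2) in 3 hr than in 1 hr controls. In that control comparison 3 of the 14 were higher and 4 lower.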

How the data were processed

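Total RNA was depleted of ribosomal RNA, and stranded libraries were sequenced from paired ends. STAR alignments to mm10 (GRCm38), per the study's methods, were the basis of the raw gene counts that the authors deposited without normalization, in 1 table for 1 hr and 1 for 3 hr. The annotation release and the use of strand in counting are not given in the sources used here. Of 41091 gene IDs, 40217 matched GENCODE M21, which gave symbols, positions, GC content and exonic length. The 874 others stayed in library sizes and tests.

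Tests used edgeR 4.0.16 (R 4.3.3, quasi-likelihood, filterByExpr, TMM) with Benjamini-Hochberg adjustment over all genes tested, at the study's thresholds. The 1 hr and 3 hr tables had separate fits with no term for animal. The interaction and the control comparison used 1 model of 11 libraries. For ratios within an animal, 0.1 CPM was added to each value before the logarithm. The members and the gene lists were chosen with earlier results of these data known. All 10 members are named whatever their test gave, and list genes are named where they were called.

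The labels number the animals, and each contributed slices to both treatments, so equal numbers pair libraries. The correlation of paired libraries' deviations from their group means, across 18240 genes, was -0.02, -0.12 and 0.07 at 1 hr and 0.03, -0.05 and 0.18 at 3 hr. For LTP and control libraries of different animals it ran from -0.128 to 0.14 at 1 hr and from -0.265 to 0.225 at 3 hr. Whether animals were shared between time points is not stated. Between replicates the chi-square per degree of freedom lay from 9.49 to 85.6, so none was a repeat of another.

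Alternatives were DESeq2 1.42.0, voom of limma 3.58.1, 3 other scalings, 2 other filters, the set-aside library included, an animal block, offsets for GC content and length from splines with 5 degrees of freedom, 1 model of the 4 groups, other thresholds, and leaving out each library. Where that left 1 library in a group, it was assumed to vary like the other groups. The procedure was tested on simulated data.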

Additional observations from a re-analysis of the deposited data

How the results depend on the processing

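For LTP at 1 hr, the count of called members was 1, and it was 0 with RLE factors, total counts, upper quartile factors, the replicate block (with or without the set-aside library), 1 model of the 4 groups, or an adjusted p under 0.05. It ranged from 0 to 1 with a library left out. At 3 hr the count was 3, from 0 to 4 with a library left out: 0 without control replicate 2, control replicate 3 or LTP replicate 1, 1 without control replicate 1, and 4 without LTP replicate 2 (Bcl2 and Bcl2l11 gained, Mcl1 lost) or LTP replicate 3 (Bcl2l1 gained). Mcl1 was lost at 3 hr with total counts (0.30, edgeR adjusted p 0.107) and at an adjusted p under 0.05, which left 2 called. The control count of 6 became 3 with GC and length offsets, where Bax reversed (-0.11). The interaction count was 0 in every alternative run. The cause of these moves was not tested.

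The remaining reversals concern values that were not called in the reported fits. At 1 hr these were Bbc3 with the replicate block (0.0037), Bcl2 (0.029), Bcl2l1 (-0.089), Pmaip1 (0.010) and Bad (-0.072) with the set-aside library, the same genes with that library and the replicate block (0.030, -0.086, 0.0019 and -0.065), and Bcl2l1 in 1 model of the 4 groups (-0.0048). In the interaction Bcl2l11 was 0.087 with the set-aside library and 0.082 with the block as well. With a library left out, the 1 hr values ranged from -0.079 to 0.057 for Bcl2, -0.042 to 0.072 for Bcl2l1, -0.31 to 0.11 for Bbc3, -0.26 to 0.079 for Pmaip1 and -0.016 to 0.14 for Bad, and Pmaip1 at 3 hr from -0.085 to 0.14. The interaction ranged from -0.068 to 0.068 for Mcl1, -0.12 to 0.056 for Bcl2l11, -0.083 to 0.29 for Pmaip1 and -0.084 to 0.14 for Bak1, and the control comparison from -0.072 to 0.031 for Mcl1 and -0.17 to 0.027 for Bak1. Over the members' alternative values, 695 kept direction and side of the threshold, 29 kept direction but lost a call, 5 gained a call, and 41 changed sign, of which only Bax with the offsets had been called. Besides Mcl1 at 1 hr, the block over the same libraries changed no call of a member. The lowest count of a member in a library was 72, above the floor of 3 counts.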

Other observations

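1 hr control replicate 2, which was left out of the reported fits, held 4.08 CPM of Bbc3, 9.25 CPM of Bcl2l11, 77.3 CPM of Bcl2l1, 16.7 CPM of Bax and 13.3 CPM of Bad. Each of these lay above both other 1 hr controls and below the mean of the 3 hr controls, which were 7.17, 15.03, 88.2, 19.3 and 13.5 CPM. Its Mcl1 level of 129 CPM lay between those of the other 1 hr controls. Bak1 (9.89 CPM) was higher there than in any of the other 11 libraries, and Pmaip1 (3.43 CPM) was below both other 1 hr controls.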
